A study of Homo sapiens with 14 samples.

Results

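The 8 polyamine genes described here are *ODC1*, *AMD1*, *SRM*, *SMS*, *OAZ1*, *OAZ2*, *AZIN1* and *SAT1*. They were chosen by name, and each matched 1 of the 61541 Ensembl gene rows of the deposited count table. Polyamines (putrescine, spermidine and spermine) are small cations that bind nucleic acids and are needed for growth. Ornithine decarboxylase, the product of *ODC1*, makes putrescine from ornithine. The enzyme of *AMD1* supplies aminopropyl groups from S-adenosylmethionine, which the synthases of *SRM* and *SMS* add to make spermidine and then spermine. Antizymes, encoded by *OAZ1* and *OAZ2*, send ornithine decarboxylase to the proteasome. Antizyme inhibitor, encoded by *AZIN1*, is an inactive relative of the decarboxylase that sequesters antizyme. The acetyltransferase of *SAT1* marks spermidine and spermine for export or oxidation. Much of this control acts on translation and protein stability, which RNA counts do not measure. *ODC1* is a textbook target of the transcription factor MYC, which drives growth in many T-cell leukaemias.

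RNA came from Jurkat, an established human line of T-cell acute lymphoblastic leukaemia, and polyadenylated transcripts were sequenced. One arm of the study set treatment with APS-2-79, an inhibitor of KSR (KSRi, n = 3), against solvent alone (DMSO, n = 3). The other set guide 1 (n = 3) and guide 2 (n = 3) to *KSR2* against a non-targeting guide (NT, n = 2). The library protocol speaks of transduced cells without saying which, and no other allele is named for any group. KSR2 is a scaffold of the RAF, MEK and ERK kinases. The labels call the guide method knockout in one place and interference in another, and they name the NT libraries as hairpin controls. The labels state neither dose nor time. Nor do they say that replicates came from different cultures, and p-values therefore cover the spread between these libraries, which may be technical.

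Library totals were 21710466 to 45897075 counts in KSRi, 27099107 to 43027877 in DMSO, 33919545 to 38801454 with guide 1, 29979565 to 42717502 with guide 2 and 25794010 to 34535929 in NT. Levels are given as CPM, the count of a gene relative to the TMM-scaled library size. *KSR2* itself averaged 0.541 CPM with guide 1 and 0.766 CPM with guide 2, against 29.5 CPM in NT. All 9 T-lineage and leukaemia markers examined were above 1 CPM in every group. Of 11 markers of other cells only the B-cell gene *CD79A* reached 1 CPM, and the summed level of these markers was 23.5 to 25.8 CPM in KSRi, 22.4 to 23.8 CPM in DMSO, 43.9 to 60.0 CPM with guide 1, 46.4 to 57.1 CPM with guide 2 and 47.6 to 68.3 CPM in NT. Pairs of KSRi libraries differed more (chi-square per degree of freedom 15.5 to 44.4) than pairs of DMSO libraries (5.29 to 7.03), and KSRi replicate 1 was in both of the widest pairs. *KSR1*, the close relative of *KSR2*, averaged 32.0 ± 4.01 CPM in KSRi and 21.7 ± 0.233 CPM in DMSO (SD, n = 3 each), a 1.47-fold rise (edgeR adjusted p = 6.15e-05). The 8 genes held 0.142% to 0.153% of all counts in KSRi and 0.181% to 0.193% in DMSO.

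The comparison of KSRi with DMSO asked how these transcripts responded to the inhibitor. All 4 synthesis enzymes and the antizyme inhibitor fell, *SAT1* rose, and the 2 antizymes did not pass the test. Thus 5 of 8 genes were lower, where 18.7% of the 18963 genes tested were lower, and 1 of 8 was higher, where 22% of all were higher (edgeR quasi-likelihood test, adjusted p under 0.05 over all genes tested). Their median log2 change was −0.41, against 0.02 over all genes tested. CPM values are relative to all RNA of a library, and in such bulk samples fewer cells that use a gene and less of its RNA per cell cannot be told apart.

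*ODC1* (ENSG00000115758; GRCh38 chromosome 2, 10439968 to 10448504, minus strand), the first and usually limiting step of the pathway, stood at 484, 581 and 550 CPM in the KSRi libraries, against 746, 716 and 700 CPM in the DMSO libraries. Every KSRi library lay below every DMSO library, as did those of 21.9% of all genes tested, while 25% lay wholly above. The means were 538 ± 49.3 CPM in KSRi and 721 ± 23.0 CPM in DMSO (SD, n = 3 each), a 1.34-fold fall (log2 change −0.42, SE 0.07, edgeR adjusted p = 0.000244).

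*AMD1* (ENSG00000123505; chromosome 6, 110874770 to 110895713, plus strand) encodes the S-adenosylmethionine decarboxylase. Its libraries held 222, 234 and 211 CPM in KSRi, against 340, 349 and 336 CPM in DMSO. This was the largest fall among the 8 genes, 1.54-fold with no overlap between the groups (log2 change −0.62, SE 0.07, edgeR adjusted p = 2.02e-06).

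The synthases fell as well. *SRM* (ENSG00000116649; chromosome 1, 11054584 to 11060024, minus strand) had 183, 212 and 189 CPM in KSRi, against 302, 266 and 287 CPM in DMSO, a 1.46-fold fall (log2 change −0.55, SE 0.08, edgeR adjusted p = 5.78e-05). *SMS* (ENSG00000102172; chromosome X, 21940573 to 21994835, plus strand) had 118, 117 and 123 CPM in KSRi, against 166, 142 and 161 CPM in DMSO. *SMS* thus fell 1.31-fold, by a log2 change of −0.39 with an SE of 0.07 (edgeR adjusted p = 0.000263). In neither gene did the groups overlap.

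**Figure D1:**
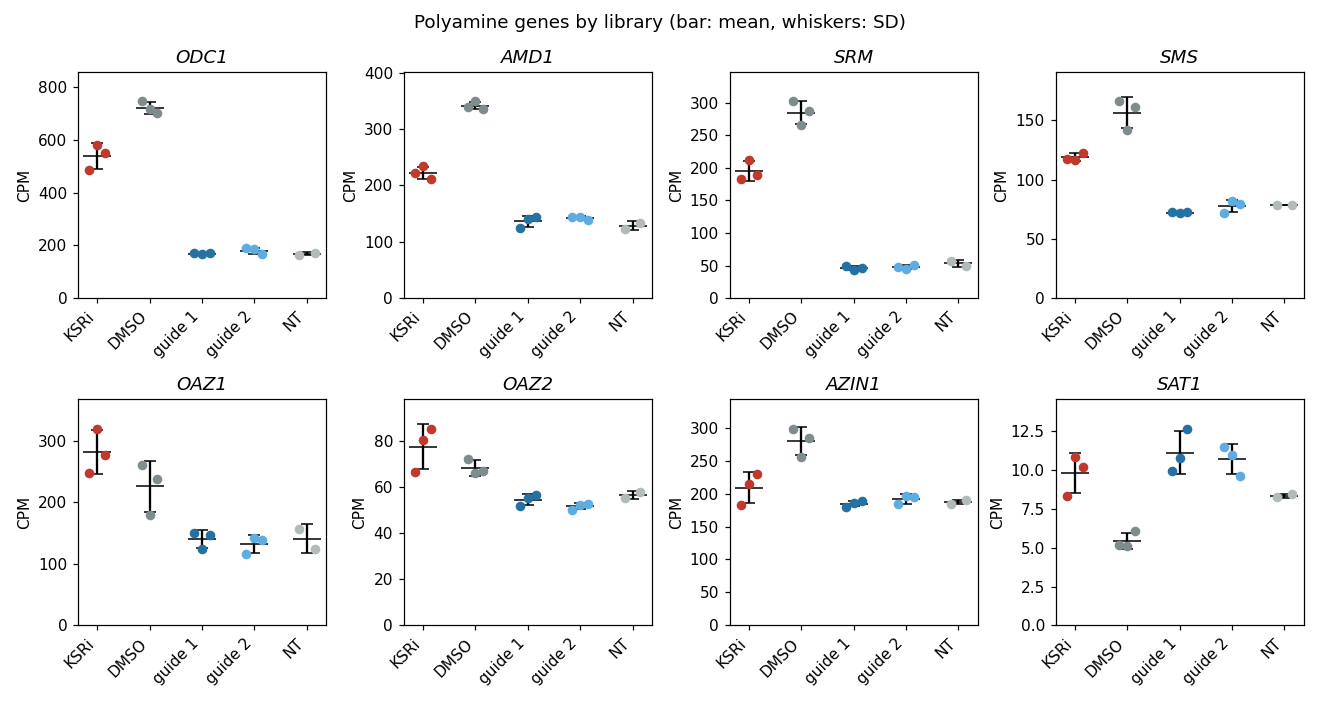
CPM of the 8 polyamine genes in each of the 14 libraries (points), by group, with the group mean (bar) and SD (whiskers). The synthesis enzymes are lower in KSRi than in DMSO and lowest in the guide 1, guide 2 and NT libraries, the *AZIN1* points of KSRi overlap those of the guide arm, and *SAT1* is lowest in DMSO.

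Since the synthesis enzymes moved together, their promoters were read for the E-box CACGTG, the palindromic sequence that MYC and its partner MAX bind. RefSeq promoter windows (GRCh38.p14, 250 bases before to 50 after each annotated start) were found for 7 of the 8 genes. None was found for *AZIN1*, so its promoter was not searched. The motif is its own reverse complement, so 1 search covers both strands. It occurred in 2548 of 35116 windows (7.26%), or at 8.77% of genes. Among the polyamine genes only *SRM* (1 match, beginning at position −199 from the start) and *ODC1* (2 matches, at −29 and 5 from its downstream alternative start) held it. No window of *AMD1*, *SMS*, *OAZ1*, *OAZ2* or *SAT1* did, which says only that these letters are not in those windows. The bases before the starts are shown without exon sequence, 5′ to 3′ on the minus strand of the gene, with the E-box in capitals, because they hold the matches; the second *ODC1* match lies past the start and is not shown. The *SRM* stretch is chr1:11060025-11060268 and the *ODC1* stretch is chr2:10448013-10448120, which is intronic in the longer *ODC1* transcripts of GENCODE 29.
SRM: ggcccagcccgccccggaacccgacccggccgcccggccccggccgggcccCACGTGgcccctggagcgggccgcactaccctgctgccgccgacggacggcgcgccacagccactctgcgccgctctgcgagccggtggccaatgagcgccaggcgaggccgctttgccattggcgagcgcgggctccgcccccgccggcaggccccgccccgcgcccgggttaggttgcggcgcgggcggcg
ODC1: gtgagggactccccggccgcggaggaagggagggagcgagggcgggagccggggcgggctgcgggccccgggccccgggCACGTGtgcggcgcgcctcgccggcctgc

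*MYC* was measured beside them. Its transcript stood at 424, 428 and 369 CPM in KSRi, against 586, 550 and 567 CPM in DMSO, a 1.39-fold fall (log2 change −0.48, SE 0.07, edgeR adjusted p = 2.90e-05). The size of this difference lay between those of *ODC1* and *SRM*. Whether MYC had a part in the falls was not tested, and a motif match is a description of letters, not of binding.

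Of the regulators of ornithine decarboxylase, the antizyme inhibitor fell and the antizymes did not pass the test. *AZIN1* (ENSG00000155096; chromosome 8, 102826357 to 102893864, minus strand) had 182, 215 and 229 CPM in KSRi, against 299, 256 and 285 CPM in DMSO, a 1.34-fold fall without overlap (log2 change −0.42, SE 0.08, edgeR adjusted p = 0.00053). An antisense gene shares 344 bases of its exons, and since it is unknown whether counting used strand, reads of the 2 genes may be mixed. The antisense row held 2.90% as many counts as *AZIN1*, summed over all libraries.

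*OAZ1* (ENSG00000104904; chromosome 19, 2269509 to 2273490, plus strand), the main antizyme, had 248, 319 and 277 CPM in KSRi, against 260, 180 and 238 CPM in DMSO. The groups overlapped, and the log2 change of 0.32 (SE 0.13) did not pass (edgeR adjusted p = 0.0641). The call turned on single libraries. Without KSRi replicate 1 the log2 change was 0.40 (edgeR adjusted p = 0.0152), and without DMSO replicate 1 it was 0.43 (adjusted p = 0.028). It moved the other way to 0.22 without KSRi replicate 2 (edgeR adjusted p = 0.263) and to 0.18 without DMSO replicate 2 (adjusted p = 0.302).

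*OAZ2* (ENSG00000180304; chromosome 15, 64687573 to 64703281, minus strand), a second antizyme, had 66.9, 80.6 and 85.6 CPM in KSRi, against 72.4, 66.1 and 67.1 CPM in DMSO. The log2 change of 0.18 with an SE of 0.08 did not pass (edgeR adjusted p = 0.0855). Without KSRi replicate 1, its lowest KSRi library, the log2 change was 0.28 (edgeR adjusted p = 0.00161), and without KSRi replicate 3, the highest, it was 0.11 (adjusted p = 0.314). Leaving out KSRi replicate 1 thus brings the higher genes to 3 of 8 and leaves the 5 lower ones in place. The share of all genes called without that library is not given here.

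*SAT1* (ENSG00000130066; chromosome X, 23783173 to 23786226, plus strand), the rate-limiting enzyme of polyamine breakdown, moved the other way from the synthesis enzymes. It had 8.36, 10.9 and 10.2 CPM in KSRi, against 5.15, 5.12 and 6.05 CPM in DMSO, so the groups did not overlap. *SAT1* rose 1.79-fold, with a log2 change of 0.84 and an SE of 0.13 (edgeR adjusted p = 6.10e-05). *SAT1* was the scarcest of the 8 genes, with 123 to 525 reads in a library.

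For levels of different genes, CPM was divided by the length of all exons of each gene (CPM per kb). That length covers every annotated exon, not only the transcripts in use, so the order of genes depends on it. In KSRi the order of mean levels was *ODC1* (181 CPM per kb), *SRM* (102), *OAZ1* (81.9), *SMS* (55.1), *AZIN1* (32.5), *AMD1* (31.6), *OAZ2* (10.1) and *SAT1* (3.93). DMSO had the order *ODC1* (243 CPM per kb), *SRM* (150), *SMS* (72.4), *OAZ1* (65.6), *AMD1* (48.6), *AZIN1* (43.5), *OAZ2* (8.94) and *SAT1* (2.18). *OAZ1* and *SMS* exchanged places, and their libraries overlapped in DMSO but not in KSRi. *AMD1* and *AZIN1* also exchanged places, and their libraries overlapped in KSRi but not in DMSO. Both exchanges depend on the lengths used. In mean CPM not divided by length, *OAZ1* was above *SMS*, and *AMD1* above *AZIN1*, in KSRi and in DMSO.

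The ratio of *ODC1* to *OAZ1*, which does not depend on library scaling, was 2.26, 2.11 and 2.30 in KSRi, against 3.33, 4.61 and 3.41 in DMSO, on the scale of CPM per kb. The ratio of *AZIN1* to *OAZ1* was 0.394, 0.360 and 0.442 in KSRi, against 0.615, 0.762 and 0.641 in DMSO. Both ratios were lower in every KSRi library than in any DMSO library. They share *OAZ1*, and the share of gene pairs that separate in this way was not counted. In the guide arm the ratios parted. That of *ODC1* to *OAZ1* ran from 1.21 (NT replicate 1) to 1.89 (guide 2 replicate 1), below every KSRi library. That of *AZIN1* to *OAZ1* ran from 0.629 to 0.848 in the same libraries, above every KSRi library. The size of each ratio depends on the exon lengths used, and the ratios were given no test.

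**Figure D2:**
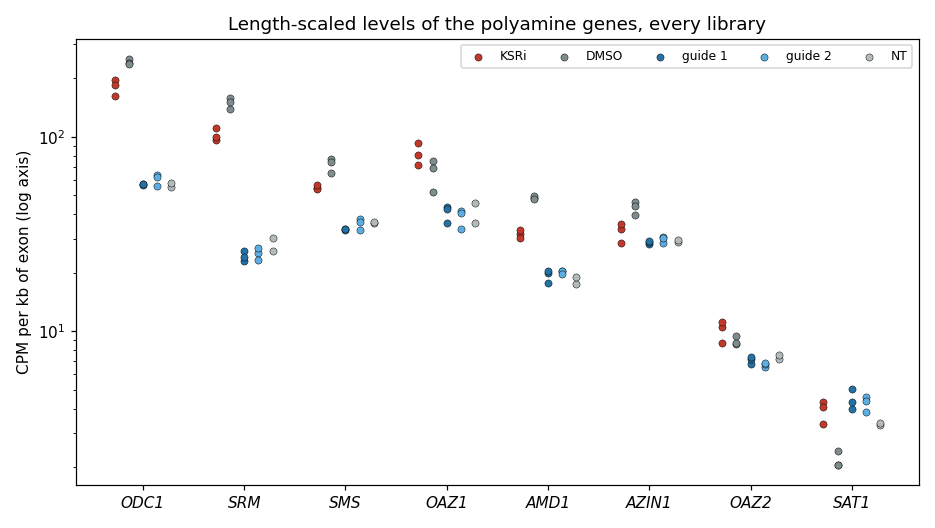
CPM per kb of exon (log axis) of the 8 genes in every library, coloured by group and ordered by the DMSO mean. *ODC1* and *SRM* lead in KSRi and DMSO, and the 3 groups of the guide arm bring *ODC1*, *SRM*, *SMS* and *OAZ1* closer together.

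The guide comparisons asked whether loss of *KSR2* transcript moved the same genes. None of the 8 passed with guide 1, with guide 2 or with both averaged, where edgeR called 0% of all genes higher in each comparison and 0.00527%, 0.0105% and 0.0158% lower. Before adjustment, p was under 0.05 for 1 of the 8 genes in each of these comparisons, namely *SAT1*, and for 880, 683 and 788 of all 18963. DESeq2 and limma-voom also called 0 of the 8 in these comparisons. The median log2 change of the 8 genes was −0.02 for both guides averaged, against −0.0044 over all genes tested.

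*ODC1* had 170, 169 and 169 CPM with guide 1, 189, 185 and 167 CPM with guide 2, and 165 and 173 CPM in NT, so the 3 groups overlapped. The log2 change over both guides was 0.05, with a 95% interval from −0.11 to 0.21. For *AMD1* the libraries held 125, 140 and 144 CPM with guide 1, 144, 143 and 139 CPM with guide 2, and 123 and 134 CPM in NT. Its log2 change was 0.11 (interval −0.03 to 0.26). The intervals of both genes lie wholly above the log2 change that KSRi gave them against DMSO.

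*SRM* had 49.3, 43.7 and 45.97 CPM with guide 1, 48.2, 44.2 and 51.0 CPM with guide 2, and 57.2 and 49.2 CPM in NT. Its log2 change of −0.18 (interval −0.35 to 0.00) was the lowest of the 8 and missed the test (edgeR adjusted p = 0.989). It was −0.06 without NT replicate 1 and −0.28 without NT replicate 2. *SMS* had 72.6, 71.7 and 72.3 CPM with guide 1, 71.9, 81.7 and 79.3 CPM with guide 2, and 78.4 and 78.9 CPM in NT, with a log2 change of −0.07 (interval −0.22 to 0.08).

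None of the regulators of ornithine decarboxylase passed either. Over both guides the log2 change was −0.05 for *OAZ1* (interval −0.33 to 0.23), −0.09 for *OAZ2* (−0.26 to 0.08) and 0.01 for *AZIN1* (−0.16 to 0.18). *OAZ1* was the least precise, with 150, 124 and 147 CPM with guide 1, 116, 142 and 139 CPM with guide 2, and 157 and 124 CPM in NT. *AZIN1* lay between 180 and 188 CPM with guide 1, between 183 and 197 CPM with guide 2, and between 185 and 190 CPM in NT.

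*SAT1* had the lowest p of the 8 in the guide arm without passing the adjusted threshold. It had 9.95, 10.8 and 12.7 CPM with guide 1, 11.5, 11 and 9.63 CPM with guide 2, and 8.25 and 8.43 CPM in NT. All 6 guide libraries lay above both NT libraries, as did those of 4.41% of all genes tested. The log2 change over both guides was 0.39 (interval 0.13 to 0.64, edgeR adjusted p = 0.989), and by p it ranked 96 of 18963 genes. It was 0.42 with guide 1 and 0.36 with guide 2, which share the same NT libraries.

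Between the guides 0 of the 8 genes differed by edgeR, as 0% of all genes were higher and 0.00527% lower with guide 2. The log2 differences, guide 2 minus guide 1, ran from −0.09 for *OAZ1* to 0.11 for *SMS*. Before adjustment none of the 8 had a p under 0.05, against 614 of all genes, and DESeq2 called 0 of the 8.

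**Figure D3:**
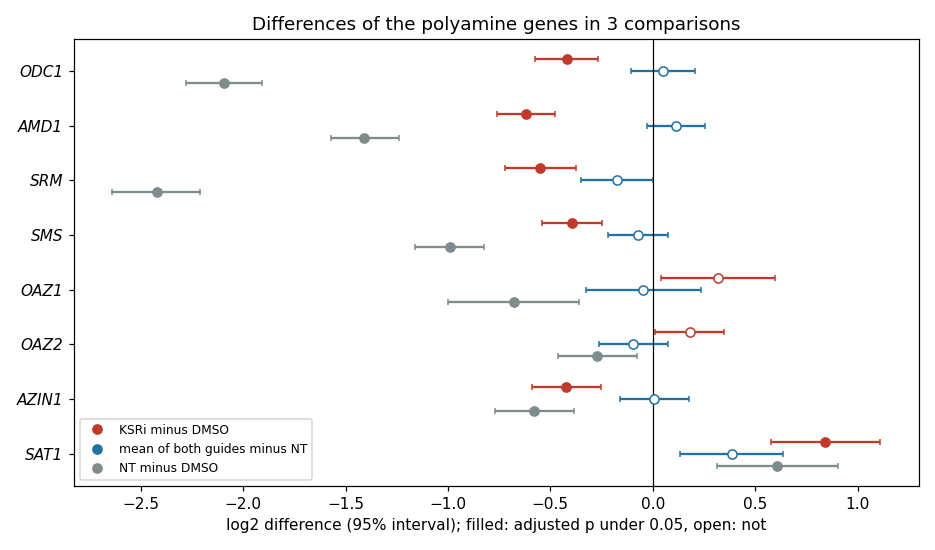
Log2 differences of the 8 genes with 95% intervals (x axis) for KSRi minus DMSO, the mean of both guides minus NT and NT minus DMSO. Filled points passed an edgeR adjusted p of 0.05 and open points did not; the guide points are all open and near 0 except *SAT1* at 0.39.

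The effect of the inhibitor was then set against that of the guides in a test of the difference itself, (KSRi minus DMSO) minus (guides minus NT). It was called lower for *AMD1* (−0.73, SE 0.10, edgeR adjusted p = 3.66e-05), *ODC1* (−0.47, SE 0.10, adjusted p = 0.00321), *AZIN1* (−0.43, SE 0.11, adjusted p = 0.0101), *SMS* (−0.32, SE 0.10, adjusted p = 0.0216) and *SRM* (−0.38, SE 0.12, adjusted p = 0.0255), all on the log2 scale. These are 5 of 8, where 12.1% of all genes were lower. None of the 8 was called higher, where 16.6% of all genes were. *SAT1* differed by 0.46 (SE 0.17, edgeR adjusted p = 0.0575), *OAZ1* by 0.37 (adjusted p = 0.155) and *OAZ2* by 0.27 (adjusted p = 0.0818). Leaving out DMSO replicate 1, DMSO replicate 3, NT replicate 1 or NT replicate 2 brought the 5 calls down to 3. The share of all genes called in these fits is not given here. *SMS* was lost each time, *SRM* in all but the case of NT replicate 1, and *AZIN1* in that case, while *AMD1* and *ODC1* were called in every one.

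NT and DMSO are the controls of the 2 arms, and at 7 of the 8 genes the log2 difference between them was larger in size than that between KSRi and DMSO, though this contrast of sizes was not tested. In NT 7 of 8 genes were lower than in DMSO, where 31.2% of all genes tested were, and *SAT1* was higher, as were 34.6% of all genes (edgeR adjusted p under 0.05). The labels name a guide for the NT libraries and a solvent for the DMSO libraries. They do not say whether DMSO cells carried a guide or NT cells received solvent. Whether culture or batch differed is not stated either, and the parts of guide, solvent, culture and batch cannot be told apart. The summed markers of other cells also differed, at 47.6 to 68.3 CPM in NT and 22.4 to 23.8 CPM in DMSO, with *CSF1R*, *EPCAM* and *HBB* at 0 counts in all libraries, and their part in the result was not tested. *SRM* averaged 53.2 ± 5.67 CPM in NT (n = 2) and 285 ± 18.3 CPM in DMSO (n = 3), 5.36-fold lower in NT (log2 difference −2.42, SE 0.10, edgeR adjusted p = 5.88e-12). *ODC1* averaged 169 ± 5.51 CPM in NT and 721 ± 23.0 CPM in DMSO, 4.27-fold lower in NT (log2 difference −2.10, SE 0.09, edgeR adjusted p = 6.23e-12).

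Of the other enzymes, *AMD1* was 2.65-fold and *SMS* 1.99-fold lower in NT than in DMSO. The regulators differed less, by 1.60-fold for *OAZ1*, 1.49-fold for *AZIN1* and 1.21-fold for *OAZ2*, all lower in NT. The *OAZ2* difference (log2 −0.27, edgeR adjusted p = 0.0148) was lost with upper-quartile scaling (−0.05, adjusted p = 0.587), with a filter of 5 CPM in 3 libraries (−0.12, adjusted p = 0.185), without DMSO replicate 1 (adjusted p = 0.0547), without NT replicate 1 (adjusted p = 0.0991) and at a threshold of 0.01. The count of 7 lower genes is then 6. That scaling moves the median log2 difference of all genes from 0.04 to 0.26, so values between the arms are best read against that shift. *SAT1* averaged 8.34 CPM in NT and 5.44 CPM in DMSO, 1.52-fold higher in NT (log2 difference 0.61, SE 0.14, edgeR adjusted p = 0.00102). *MYC*, at 116 CPM in NT and 568 CPM in DMSO, was 4.91-fold lower in NT (edgeR adjusted p = 1.27e-12).

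KSRi minus DMSO and NT minus DMSO share the DMSO libraries, so their likeness is not independent evidence. Side by side, the log2 differences were −0.42 and −2.10 for *ODC1*, −0.62 and −1.41 for *AMD1*, −0.55 and −2.42 for *SRM*, −0.39 and −0.99 for *SMS*, and 0.84 and 0.61 for *SAT1*. Across the 5 groups, *ODC1*, *AMD1*, *SRM* and *SMS* thus had their highest mean in DMSO, the next in KSRi, and guide 1, guide 2 and NT below, with no overlap of DMSO, KSRi and the guide arm. Such separation was common: of all genes tested, 21.9% lay wholly below DMSO in KSRi. In NT 37.8% lay wholly below DMSO and 41.5% wholly above. The share of all genes with this full order was not counted. For *AZIN1* the KSRi libraries overlapped those of the guide arm. *OAZ1* and *OAZ2* had their highest mean in KSRi, whose libraries overlapped those of DMSO. *SAT1* was lowest in DMSO, and its KSRi libraries overlapped those of guide 1, guide 2 and NT.

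The rest of the pathway was followed in a list of 28 genes, of which 24 passed the filter on low counts. With KSRi 7 of these 24 rose (22% of all genes did) and 8 fell (18.7% of all genes did), with a median log2 change of −0.05. For both guides, each guide alone and guide 2 against guide 1, 0 of 24 passed in either direction. In NT against DMSO 6 of 24 were higher, where 34.6% of all genes were, and 15 were lower, where 31.2% were, with a median log2 difference of −0.41.

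Both tested genes of acetylation and oxidation in the list rose with KSRi. *SAT2*, a relative of *SAT1* that acts on thialysine in human cells, had 5.60, 7.33 and 7.84 CPM in KSRi, against 3.43, 2.74 and 3.47 CPM in DMSO, or 2.14-fold higher (edgeR adjusted p = 8.71e-06). *SMOX*, the spermine oxidase, had 19.1, 21.3 and 26.8 CPM in KSRi, against 17.6, 17.0 and 14.7 CPM in DMSO (1.36-fold, adjusted p = 0.0109). The largest rise of the list was in *AZIN2*, a second antizyme inhibitor, with 8.59, 9.45 and 12.1 CPM in KSRi, against 3.35, 3.83 and 3.78 CPM in DMSO (2.703-fold, edgeR adjusted p = 4.55e-07). *AZIN1*, its relative, fell. The other tested regulator of the list did not pass.

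Of 3 genes of S-adenosylmethionine metabolism in the list, 1 fell and the others did not pass. *MAT2A*, which makes S-adenosylmethionine, the substrate of the *AMD1* product, had 569, 483 and 505 CPM in KSRi, against 957, 928 and 1014 CPM in DMSO. This was the largest fall of the list, 1.86-fold without overlap (log2 change −0.90, SE 0.09, edgeR adjusted p = 1.22e-06). A gene on the opposite strand shares 558 bases of its exons and held 6.18% as many counts, summed over all libraries. Of 4 tested enzymes that salvage methylthioadenosine, *ENOPH1* fell 1.30-fold (edgeR adjusted p = 9.72e-05) and 3 did not pass. For ornithine and its neighbours, *ARG2*, the mitochondrial arginase, rose 1.32-fold (edgeR adjusted p = 0.0191), with overlapping libraries. Its exons share 904 bases with a more highly counted gene of the other strand, so reads may be mixed. The aminotransferase *OAT* fell 1.16-fold (adjusted p = 0.0244) and *ALDH18A1*, of proline and ornithine synthesis, fell 1.22-fold (adjusted p = 0.00691). The other tested gene of this group did not pass.

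Spermidine is also the source of hypusine, a modified lysine of the translation factor eIF5A. *EIF5A* had 707, 931 and 1032 CPM in KSRi, against 1277, 1295 and 1333 CPM in DMSO, a 1.46-fold fall (log2 change −0.55, SE 0.11, edgeR adjusted p = 0.000561). *DOHH*, the hydroxylase of the second step, fell 1.49-fold (edgeR adjusted p = 0.00161). *DHPS*, the synthase of the first step, had 1.92 to 2.58 CPM in KSRi, against 3.16 to 3.41 CPM in DMSO (1.58-fold lower, adjusted p = 0.00459). Its exons share 1157 bases with another gene of the same strand, so its counts may be incomplete. The other tested gene of this group did not pass. Of 5 transport genes *ATP13A2*, which exports polyamines from lysosomes, rose 1.501-fold (edgeR adjusted p = 0.000165) and *ATP13A3*, an endosomal relative, fell 1.40-fold (adjusted p = 4.48e-05). *SLC18B1*, a vesicular polyamine transporter, rose 1.16-fold (adjusted p = 0.0186). *SLC3A2*, the heavy chain of several amino acid transporters, rose 1.34-fold with overlapping libraries (adjusted p = 0.00967), and the fifth did not pass.

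**Figure D4:**
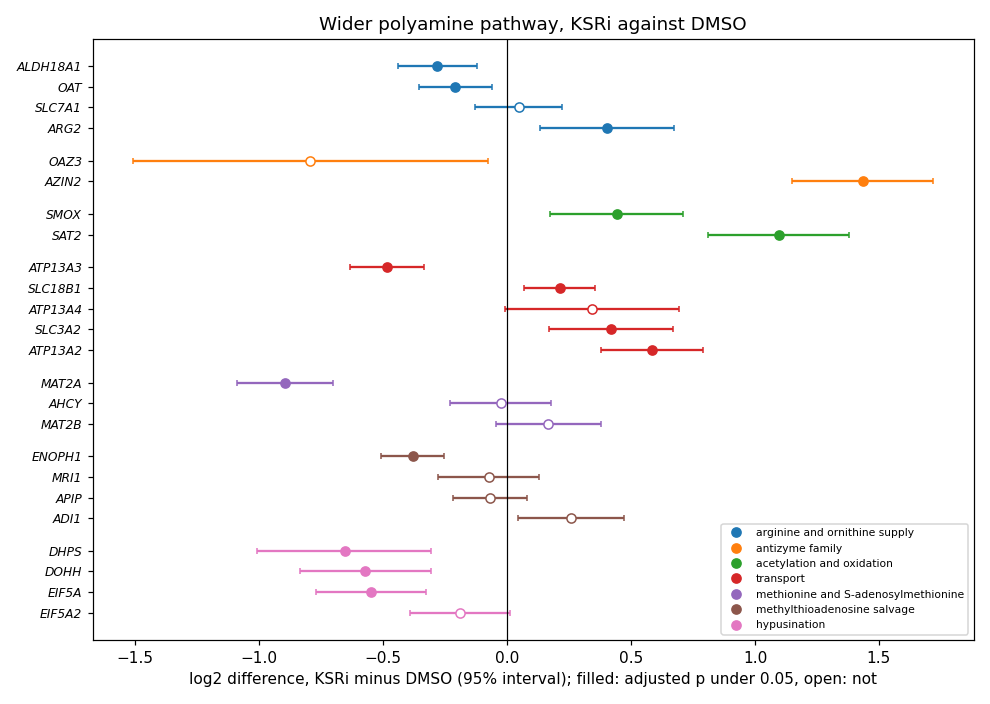
Log2 differences, KSRi minus DMSO, of the 24 tested genes of the wider pathway with 95% intervals (x axis), grouped and coloured by role. Filled points passed an edgeR adjusted p of 0.05; *AZIN2* and *SAT2* lie farthest to the right, and *MAT2A* is the lowest of the filled points.

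Genes with the most similar pattern were sought for *ODC1* and *SAT1* as the smallest root-mean-square difference of log2 CPM, each gene centred on its mean over the 14 libraries, among 11062 genes of at least 5 CPM. For *ODC1* they were *FABP5* (0.083 on the log2 scale), *SCFD2* (0.084) and *ADISSP* (0.088). *FABP5*, a fatty acid binding protein gene, had log2 differences of −0.60 for KSRi minus DMSO and −2.15 for NT minus DMSO. Those of *ODC1* were −0.42 and −2.10. Since the measure takes in every library, the difference between the arms weighs most in the match to *ODC1*. The likeness is thus not one of response to the inhibitor alone. For *SAT1* they were *IL9R* (0.145), *TP53TG1* (0.152) and *TCEAL1* (0.154).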

How the data were processed

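Gene counts of 14 Jurkat libraries were used. The table deposited by the authors holds raw counts, 1 row per Ensembl identifier. Tools named in the submitters' processing notes are STAR 2.7.11b and DESeq2 1.42.1, with the build GRCh38. How reads were counted, with which annotation and whether by strand, is not stated there, which matters for overlapping genes. Counts were fitted with edgeR 4.0.16 in R 4.3.3 (TMM, filterByExpr, 1 mean per group over all 14 libraries, quasi-likelihood F test, Benjamini-Hochberg adjustment over all 18963 tested genes, threshold 0.05). All 8 polyamine genes passed the filter. The shared spread is used because NT has 2 libraries. Intervals are 95% and SE are on the log2 scale. Positions and exon lengths are from GENCODE 29 (GRCh38), and promoter sequences from RefSeq (GRCh38.p14). The procedure was tested on simulated data. No libraries were identical, and replicate pairs differed beyond sampling noise. The replicate numbers gave no sign of pairing, and the main fit did not use them. The genes and lists were chosen with earlier results of these data known. Named genes are the 8, *KSR2*, *KSR1*, *MYC*, pathway genes called with KSRi, and 3 genes of the most similar pattern for each of *ODC1* and *SAT1*. Pathway genes below the filter, cell markers at 0 or above 1 CPM and neighbours of *MTAP* are named outside this rule, after their values were seen. The alternatives tried were scaling by RLE or by the upper quartile, keeping all genes or only those over 5 CPM in 3 libraries, limma-voom (limma 3.58.1), DESeq2 1.42.0, a fit to the compared groups alone, a replicate block, each library left out, and an adjusted p under 0.01.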

Additional observations from a re-analysis of the deposited data

Results flagged for a closer look

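The effect of the inhibitor and that of the guides differed, by a test of the difference itself, for 5 of the 8 polyamine genes. For all 5 the difference was called lower, as it was for 12.1% of all genes tested, while 16.6% were called higher. At an adjusted p under 0.01 the count was 2, and with 1 library left out it was 3 to 5. Calls over all genes, both directions together, were 5431 at the main threshold and 2908 at 0.01. The log2 difference was −0.47 for *ODC1*, −0.73 for *AMD1*, −0.38 for *SRM*, −0.32 for *SMS* and −0.43 for *AZIN1*. Each came from a fall in KSRi against DMSO and no call with the guides against NT. The arms also differed in their controls, NT and DMSO, and the part of that in these differences was not tested.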

How the results depend on the processing

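In KSRi against DMSO the 5 falls and the rise of *SAT1* kept their direction and call under every alternative run. The number of the 8 genes called higher was 2 with no low-count filter and 1 to 3 when 1 library was left out. For the wider pathway, 4 were higher at an adjusted p under 0.01. Over all genes, both directions together, there were 7720 calls with no filter and 5204 at 0.01, against 7712. Calls over all genes with 1 library left out are not given here. In the test of inhibitor against guide effect, the 8 genes gave 1 higher with no filter (0 to 3 with 1 library left out) and 2 lower at 0.01 (3 to 5 with 1 left out). In the same test 5 of the 24 tested pathway genes were higher (16.6% of all genes were) and 6 were lower (12.1% of all were). That list gave 3 to 6 higher with 1 library left out, and 3 lower at 0.01 (3 to 8 with 1 left out). Over all genes, both directions together, this test gave 5432 calls with no filter and 2908 at 0.01, against 5431. No guide comparison called any of the 8 or of the pathway list under any alternative, though over all genes both guides against NT gave 41 calls with no filter and 7 with DESeq2, against 3. Guide 1 gave 35 and 7 against 1, guide 2 gave 35 and 5 against 2, and guide 2 against guide 1 gave 13 and 2 against 1.

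Signs turned only in guide comparisons that did not pass, and the cause was not tested. For *AZIN1* with both guides the log2 change was −0.0040 with RLE factors, −0.0046 with DESeq2 and −0.0193 with a replicate block (−0.0103 to 0.0253 with 1 library left out). For *ODC1* with guide 1 it was −0.0110 with RLE factors and −0.0116 with DESeq2 (−0.0278 to 0.0378 with 1 left out). For *OAZ1* with guide 1 it was 0.0112 with upper-quartile factors, 0.0025 with no filter, 0.0120 with a filter of 5 CPM and 0.0034 with limma-voom (−0.164 to 0.176 with 1 left out). With 1 library left out, *OAZ1* ran from −0.207 to 0.133 with both guides and from −0.249 to 0.0907 with guide 2, and *SMS* with guide 2 from −0.0570 to 0.0339. Guide 2 minus guide 1 ran from −0.0020 to 0.0986 for *SRM*, from −0.163 to 0.0025 for *OAZ1* and from −0.136 to 0.0444 for *SAT1*.

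The replicate numbers gave no sign of pairing, as deviations of same-numbered libraries from their group mean correlated at only −0.184 to 0.111. Those of other numbers correlated at −0.111 to 0.115. The deviations of the 2 NT libraries mirror each other and set both ends of this second range. Setting the 2 ranges side by side therefore cannot decide whether libraries were paired. The replicate block kept the counts of the 8 genes at 1 higher and 5 lower in KSRi against DMSO. The shared spread does not allow for the wider spread of the KSRi libraries, and with 2 NT libraries the guide comparisons rest most on each of those.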

Other observations

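Of the 28 genes of the wider pathway 4 did not pass the low-count filter. *MTAP*, which salvages the methylthioadenosine that the polyamine synthases release, had 0 counts in all 14 libraries, a count that allows up to 0.0658 to 0.161 CPM (3 counts of each library, counting error only). The 3 other protein-coding genes within 300 kb of it on chromosome 9, *CDKN2A*, *CDKN2B* and an unnamed one, also had 0 counts in all libraries. The unnamed gene overlaps *MTAP* and shares 460 bases of its exons, so its counts are not independent of those of *MTAP*. All 3 were looked up after the *MTAP* counts were seen. *PAOX*, the polyamine oxidase that follows *SAT1*, had 8 to 11 counts with guide 1, 1 to 8 with guide 2 and 6 in each NT library, against 0 in all KSRi and DMSO libraries. This difference was not tested. The exons of *PAOX* share 158 bases with a more highly counted gene of the same strand, so its few reads may be mixed. *ARG1* and *AGMAT* had at most 2 counts in any library.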
